A study of Mus musculus with 12 samples.

Results

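The genes described here are 9 genes of the complement system, namely C1qa, C1qb, C1qc, C2, C3, C4b, Cfb, C3ar1 and Colec11, out of 34797 gene names on the array. They were taken by gene name from the non-control probes, which gave 10 probes of 55681, and all 9 genes passed the filter on dim probes. Colec11 was treated as chosen by its difference between BA+rapamycin and BA+DMSO in these same arrays. Which values chose the other 8 genes is not recorded. The Colec11 values in comparisons that use the arrays of either group are therefore given as a description with no test. Tests there are counted over the other 8 genes. RNA of the aorta was measured in 12 C57BL/6J mice on day 3, with 1 array per mouse and 3 mice in each of 4 groups. DMSO mice were given the vehicle dimethylsulfoxide alone. Rapamycin mice were given rapamycin, an inhibitor of the kinase mTOR, at 2 mg/kg/day in the same vehicle. BA+DMSO mice were given vehicle together with β-aminopropionitrile (BAPN, 150 mg/kg/day), which stops collagen from being crosslinked, and the pressor peptide angiotensin II (AngII, at 1 µg/kg/min). BA+rapamycin mice were given BAPN, AngII and rapamycin at the same doses. DMSO samples carry titles starting with Pre, the study's word for mice before the challenge, although their treatment labels name the vehicle on day 3. The model was read at a time before most dissections form, and each array held a whole stretch of aorta with all the cells in it.

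Complement is a cascade of proteins that tags cells and debris and recruits leukocytes. The classical pathway starts when C1q, assembled from the chains encoded by C1qa, C1qb and C1qc, binds a target. C4 and C2 are then cut and form an enzyme that cuts C3. The lectin pathway reaches the same C4 and C2 from sugar-binding proteins such as collectin 11, encoded by Colec11. The alternative pathway uses factor B, encoded by Cfb, in place of C2 and amplifies the cleavage of C3. C3ar1 encodes the receptor for C3a, the small fragment released from C3. In many tissues macrophages are the main source of C1q, whereas the liver makes most of the circulating C3.

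All levels below are log2 values of the processed signal after subtraction of the 75th percentile of the array, so that a level of 0 equals that percentile, and a difference of 1 is a doubling. Levels of different genes come from different probes and were not compared with each other. The 75th percentile was between 221 and 337 intensity units on the 6 arrays without the challenge and between 74.6 and 246 on the 6 with it. Slide 1 held the DMSO arrays and 1 rapamycin array, and slide 2 held the challenged arrays and the other 2 of rapamycin. Aortic identity was checked on markers. Myh11, Acta2 and Tagln of smooth muscle were well above background on all 12 arrays. The median shift of 8 smooth muscle markers from the DMSO mean was -1.40 on BA+DMSO 1 and -0.38 to 0.15 on the others, so BA+DMSO 1 stood apart. It was also the highest array of its group for the 3 C1q chains, Cfb and C3ar1, and the part of this in their values was not tested. With 3 arrays per group, the number of arrays limits the precision. The p-values set a difference against the spread between mice within groups, pooled over the 4 groups.

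Of the 9 genes, 5 had a promoter in the RefSeq table of build GRCm38.p6, which holds 250 bases before and 50 bases after each gene start. The promoters of C1qb and C1qc are shown because these neighbouring genes moved together, that of C3 because all 3 pathways meet at it, and that of Colec11 because it moved the opposite way. They are written 5′ to 3′ on the strand of the gene, and capitals mark matches to a searched motif on either strand.
C1qb, chr4:136886151-136886450, minus strand: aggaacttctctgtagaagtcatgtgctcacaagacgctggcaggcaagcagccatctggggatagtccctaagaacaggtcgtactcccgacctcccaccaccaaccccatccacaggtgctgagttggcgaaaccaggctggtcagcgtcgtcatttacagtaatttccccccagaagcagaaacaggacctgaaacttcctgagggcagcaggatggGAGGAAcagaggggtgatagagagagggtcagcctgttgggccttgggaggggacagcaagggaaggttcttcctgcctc
C1qc, chr4:136892865-136893164, minus strand: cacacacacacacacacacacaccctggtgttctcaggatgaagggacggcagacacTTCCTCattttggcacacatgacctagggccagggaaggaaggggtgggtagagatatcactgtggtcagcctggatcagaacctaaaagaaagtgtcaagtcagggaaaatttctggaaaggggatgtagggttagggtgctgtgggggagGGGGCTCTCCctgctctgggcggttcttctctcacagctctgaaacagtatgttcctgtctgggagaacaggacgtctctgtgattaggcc
C3, chr17:57228087-57228386, minus strand: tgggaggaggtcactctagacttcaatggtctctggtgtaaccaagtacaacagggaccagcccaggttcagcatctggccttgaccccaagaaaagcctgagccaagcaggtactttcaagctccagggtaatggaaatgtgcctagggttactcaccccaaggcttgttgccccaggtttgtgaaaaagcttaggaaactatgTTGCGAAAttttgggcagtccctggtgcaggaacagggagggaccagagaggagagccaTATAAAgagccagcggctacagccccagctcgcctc
Colec11, chr12:28623281-28623580, minus strand: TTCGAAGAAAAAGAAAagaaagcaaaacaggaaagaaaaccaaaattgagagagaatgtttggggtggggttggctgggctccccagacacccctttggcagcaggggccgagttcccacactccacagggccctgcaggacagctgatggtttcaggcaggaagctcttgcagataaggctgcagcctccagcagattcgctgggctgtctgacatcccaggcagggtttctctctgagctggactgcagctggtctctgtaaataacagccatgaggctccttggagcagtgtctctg

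The motifs searched were TATAAA, TTGCNNAA (bound by C/EBP factors), TTCNNNGAA (STAT), TGANTCA (AP-1), GAGGAA (ETS factors such as PU.1), the interferon-stimulated response element and the NF-kB motif. The C1qb promoter held GAGGAA at -30 to -25 from the table's start site, and the C1qc promoter held it at -193 to -188 on the other strand. GAGGAA is common, with a match in 28.3% of the 32841 promoters searched. The C1qc promoter also matched the NF-kB motif at -41 to -32, as did 8.46% of promoters. The C3 promoter held TTGCNNAA at -45 to -38, found in 10.8% of promoters, and TATAAA at 15 to 20 after the start, found in 13.6%. In the Colec11 promoter TTCNNNGAA at -250 to -242 and the interferon element at -244 to -235 overlapped at the far end of the window, and these were present in 8.3% and 3.44% of promoters. Each match describes the letters in this window, and binding was not measured.

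The genes of the C1q chains lie side by side on chromosome 4 (GRCm38.p6, C1qb 136880126 to 136886200, C1qc 136889801 to 136892936, C1qa 136895916 to 136898844), and they were low in DMSO and high in BA+DMSO. C1qa read 2.52, 0.80 and 0.87 on DMSO arrays 1 to 3, 2.12, 2.37 and 3.01 in rapamycin, 4.59, 2.69 and 4.50 in BA+DMSO, and 3.29, 3.26 and 3.28 in BA+rapamycin. DMSO 1 was the high array of its group and BA+DMSO 2 the low array of its group, and BA+DMSO still lay above DMSO without overlap. C1qb read 2.18, 0.52 and 0.64 in DMSO, 1.73, 2.11 and 2.67 in rapamycin, 4.18, 2.84 and 3.99 in BA+DMSO, and 3.31, 3.13 and 3.23 in BA+rapamycin. C1qc, measured by 10 spots whose SD on an array was 0.0273 to 0.0651, read 3.04, 2.20 and 2.05 in DMSO, 3.02, 3.18 and 3.24 in rapamycin, 4.97, 3.72 and 4.59 in BA+DMSO, and 4.15, 4.17 and 4.15 in BA+rapamycin. DMSO 1 was the highest DMSO array and BA+DMSO 2 the lowest BA+DMSO array for all 3 chains, and over the 12 arrays Pearson's r between them was 0.964 to 0.986, as a description of arrays that share their groups. The SD between BA+rapamycin mice was 0.0168 for C1qa and 0.0113 for C1qc, against 1.07 and 0.642 between BA+DMSO mice.

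C4b and C2 encode the pieces of the enzyme of the classical and lectin pathways, and they did not follow the same pattern. C4b read 3.36, 3.54 and 3.78 in DMSO, 4.25, 4.54 and 4.14 in rapamycin, 5.32, 5.52 and 4.38 in BA+DMSO, and 6.20, 5.96 and 5.98 in BA+rapamycin. Its 3 lowest levels were the DMSO arrays and its 3 highest the BA+rapamycin arrays, with BA+DMSO 3 the low array of its group. The near-identical gene C4a lies close by on chromosome 17, the array names no probe for it, and whether the C4b probe also binds C4a RNA was not tested. C2, which is cut to give the protease of that enzyme, read 3.35, 2.56 and 2.12 in DMSO, 3.02, 3.66 and 3.83 in rapamycin, 3.03, 3.38 and 2.96 in BA+DMSO, and 2.54, 2.27 and 2.55 in BA+rapamycin. Its 3 BA+rapamycin arrays lay below every rapamycin and BA+DMSO array and within the range of DMSO.

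Cfb, the counterpart of C2 in the alternative pathway, begins where C2 ends on chromosome 17 (GRCm38.p6, Cfb 34856374 to 34862514, C2 34862602 to 34882100). Cfb read 2.48, 1.68 and 1.61 in DMSO, 2.86, 2.99 and 3.40 in rapamycin, 4.26, 3.21 and 4.05 in BA+DMSO, and 4.14, 4.15 and 3.98 in BA+rapamycin. Every array of the other groups lay above every DMSO array. Set against the DMSO mean, Cfb moved by 0.58 to 1.99 more than C2 on the BA+DMSO arrays and by 2.19 to 2.64 more than C2 on the BA+rapamycin arrays. On rapamycin arrays without the challenge this gap was 0.08 to 0.59.

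C3 carries the central protein of the cascade, and it had 2 probes. The brighter, with 10 spots whose SD was 0.0231 to 0.047, read 5.37, 5.02 and 5.05 in DMSO, 6.02, 6.15 and 6.07 in rapamycin, 6.68, 6.93 and 6.10 in BA+DMSO, and 6.80, 6.67 and 6.96 in BA+rapamycin. No array of another group overlapped DMSO, and BA+DMSO 3 was level with rapamycin. The second C3 probe gave the same order of group means, at 4.28, 5.29, 5.68 and 5.87. C3ar1, the receptor for C3a, was a dim probe that was well above background on all 12 arrays. It read -1.94, -2.82 and -1.92 in DMSO, -1.61, -2.10 and -1.39 in rapamycin, 0.48, -1.62 and -0.66 in BA+DMSO, and -1.03, -0.35 and -0.34 in BA+rapamycin. BA+DMSO 2, the low C1q array, was also the low C3ar1 array of its group, and it lay within the range of the rapamycin arrays.

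Colec11 went the other way. It read 0.88, 0.98 and 1.04 in DMSO, 1.02, 1.17 and 0.94 in rapamycin, 0.21, 0.11 and 0.35 in BA+DMSO, and -2.82, -3.05 and -1.52 in BA+rapamycin. The SD was 0.0801 to 0.123 within the other groups and 0.823 in BA+rapamycin, whose arrays lay at least 1.63 below all others. Its probe stood clear of background on all 9 arrays of the other groups but on 1 of 3 BA+rapamycin arrays, replicate 3. Against BA+DMSO the BA+rapamycin mean was 6.45-fold lower as measured, and at least 5.41-fold lower when each BA+rapamycin array was raised to the lowest signal among its probes well above background. This is the difference by which Colec11 was treated as chosen. With normexp background correction it was -1.02 on the log2 scale in place of -2.69, so the bound of 5.41-fold holds only without it.

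**Figure D1:**
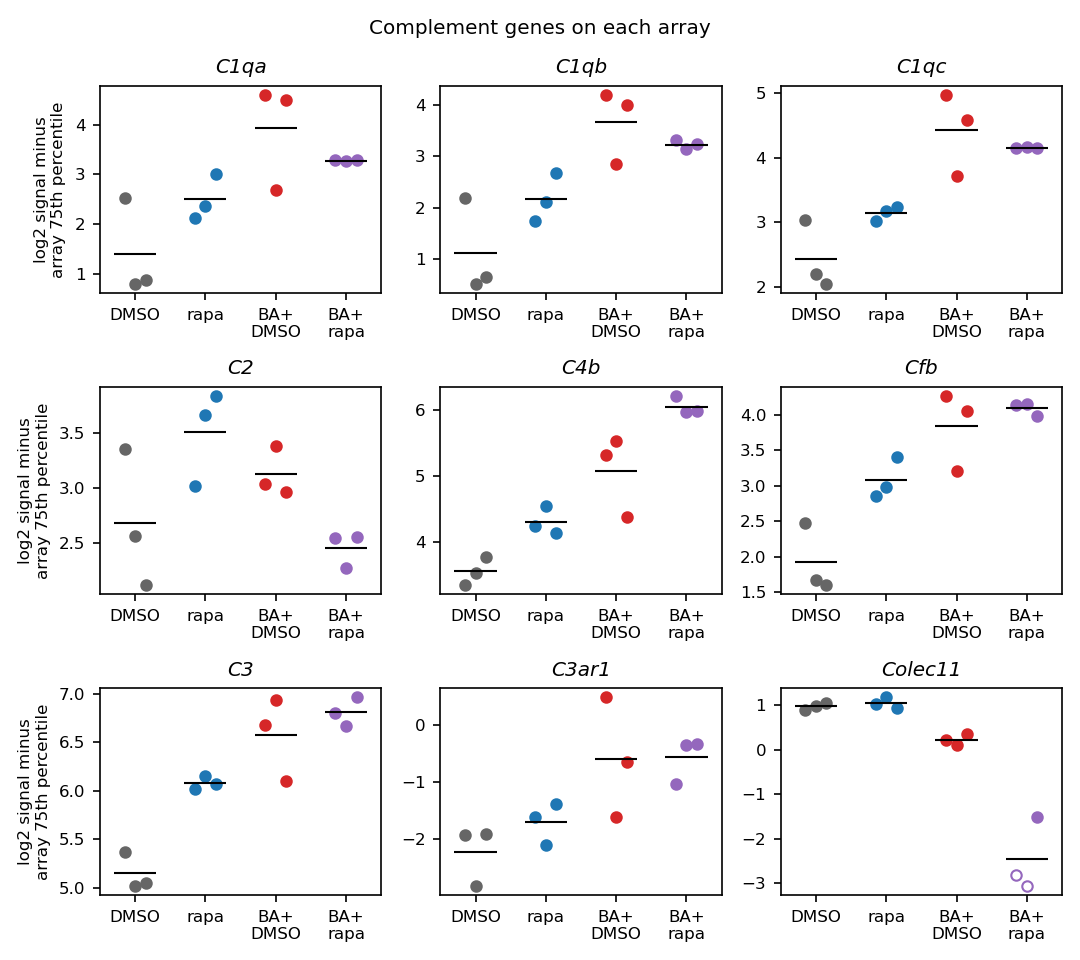
Level of each gene on each array (y axis, log2 signal minus the 75th percentile of the array) in DMSO, rapamycin (rapa), BA+DMSO and BA+rapamycin mice, with the group mean as a line and open circles for arrays not well above background. C1q chains, C4b, Cfb and C3 sit lowest in DMSO, C2 sits lower in BA+rapamycin than in rapamycin or BA+DMSO, and Colec11 drops to between -3.05 and -1.52 in BA+rapamycin.

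The first comparison asked how BAPN + AngII challenge with vehicle changed these genes (BA+DMSO minus DMSO). Of the 8 genes other than Colec11, 7 were higher after challenge by limma with Benjamini-Hochberg adjustment over 27801 tested probes at a threshold of 0.05, and none was lower. Over all tested probes 9.65% were higher by this rule and 10.8% lower. C1qa rose by 2.53 ± 0.54 (log2 difference ± SE, n = 3 arrays per group; adjusted p = 0.0101), or 5.76-fold, and C1qb rose by 2.55 ± 0.46 (adjusted p = 0.00425). C1qc rose by 1.99 ± 0.32 (adjusted p = 0.00239), Cfb by 1.92 ± 0.31 (adjusted p = 0.00229) and C4b by 1.51 ± 0.27 (adjusted p = 0.00418). C3 rose 2.69-fold, by 1.43 ± 0.22 (adjusted p = 0.00181), and C3ar1 by 1.63 ± 0.47 (adjusted p = 0.0319). The difference for C2 was 0.45 (95% interval -0.23 to 1.12, adjusted p = 0.328) with overlapping groups. Colec11, given with no test since its BA+DMSO arrays are part of the difference taken to have chosen it, was 0.74 lower. Its groups did not overlap, which held downward for 20.1% of all probes. The median over the 8 genes was 1.77, against -0.04 over all tested probes. The study's own threshold, an unadjusted p below 0.01 with a change of over 4-fold, was passed by C1qa and C1qb and by 2.51% of all probes.

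All DMSO arrays and all BA+DMSO arrays were on different slides, so challenge and slide cannot be told apart without the rapamycin arrays. With the slide as a fixed term, which rests on the rapamycin arrays, 0 of the 8 genes and 15 of all probes passed, and the difference was 1.96 for C1qa, 1.34 for C3 and -0.28 for C2. Without DMSO 1, the array with the high C1q levels, 6 genes and 11.8% of all probes passed, and C3ar1 did not (difference 1.77, adjusted p = 0.0595). The C3ar1 call was lost in 11 of 26 alternatives. Without BA+DMSO 1, the array with the low smooth muscle score, 6 genes and 11.2% of all probes passed, and C3ar1 differed by 1.09 (adjusted p = 0.102).

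The second comparison asked the same of mice given rapamycin (BA+rapamycin minus rapamycin), with 2 of the 3 rapamycin arrays on the slide of the challenged arrays. Of the 8 genes other than Colec11, C4b, Cfb, C1qc and C3 were higher and C2 was lower. With the date in the title as a block (estimated correlation 0.496; BA+DMSO 2 and 3 have no date there and were each a block alone) 3 of the 8 and 40% of all probes passed, and with array brightness as a covariate 1 of the 8 and 6.43% of all probes. The same rule called 18.9% of all probes higher and 22.9% lower. C4b rose by 1.73 ± 0.27 (adjusted p = 0.00131), or 3.33-fold, and Cfb by 1.01 ± 0.31 (adjusted p = 0.0232). C1qc rose by 1.01 ± 0.32 (adjusted p = 0.0278) and C3 by 0.73 ± 0.22 (adjusted p = 0.0212). C2 fell by 1.05 on the log2 scale, with an SE of 0.31 (adjusted p = 0.0205). The differences were 0.78 for C1qa (95% interval -0.42 to 1.98), 1.05 for C1qb (95% interval 0.04 to 2.07) and 1.13 for C3ar1 (95% interval 0.10 to 2.15), with adjusted p of 0.26, 0.0858 and 0.0718. None of the 8 genes overlapped between the groups, 7 upward and C2 downward, where 29.8% of all probes did not overlap upward and 36.1% downward. Colec11 was 3.51 lower in BA+rapamycin, at least 9.54-fold by the bound above, which holds for this scaling and background only, since with normexp the difference was -1.72. The study's threshold was passed by 0 of the 8 genes and by 5.14% of all probes.

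Within slide 2, with 3 BA+rapamycin and 2 rapamycin arrays, the difference was 1.70 for C4b, 0.90 for Cfb, 0.95 for C1qc, 0.70 for C3, -1.29 for C2 and -3.52 for Colec11. With these arrays and BA+DMSO fitted alone, 2 of the 8 genes and 11.8% of all probes passed. Removal of any rapamycin or BA+rapamycin array left 2 or 3 of the 8 genes, and 23.5 to 35% of all probes. Over 27 alternatives the difference ran from 0.79 to 1.92 for C4b, 0.58 to 1.81 for Cfb and 0.6 to 1.8 for C1qc. It ran from 0.2 to 0.91 for C3, -1.38 to -0.76 for C2 and 0.17 to 2.5 for C1qa.

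**Figure D2:**
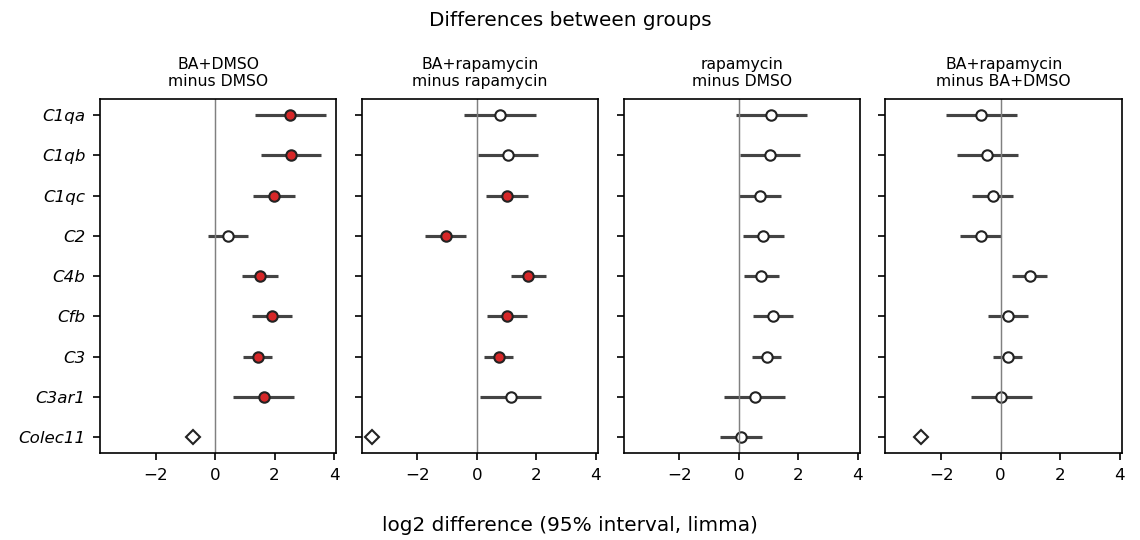
Difference of each gene between groups (x axis, log2) in the 4 comparisons, with 95% intervals from limma, and filled circles for differences past an adjusted p of 0.05. Diamonds without an interval mark Colec11 in the 3 comparisons that use arrays whose difference was taken to have chosen it. C2 sits right of 0 in BA+DMSO minus DMSO (0.45) and left of 0 in BA+rapamycin minus rapamycin (-1.05).

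The third comparison concerned rapamycin in mice without the challenge (rapamycin minus DMSO). The means of all 9 genes were higher with rapamycin, by 0.08 for Colec11 to 1.16 for Cfb. None passed limma's test with Benjamini-Hochberg adjustment, and 1 of all probes, or 0.0036%, did. An unadjusted p under 0.05 was found for 6 of the 9 genes and for 4.27% of all probes. C3 was higher by 0.94 (95% interval 0.46 to 1.41, adjusted p = 0.554), Cfb by 1.16 (95% interval 0.49 to 1.83, adjusted p = 0.65) and C4b by 0.75 (95% interval 0.16 to 1.35, adjusted p = 1). These 3 genes did not overlap between the groups, as 10.8% of all probes did not in the upward direction. C1qa, C1qb and C1qc differed by 1.1, 1.06 and 0.72 with overlap from DMSO 1. On slide 1, where 1 rapamycin array lay beside the 3 DMSO arrays, the differences were 0.88 for C3, 0.94 for Cfb and 0.69 for C4b.

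The fourth comparison concerned rapamycin in challenged mice (BA+rapamycin minus BA+DMSO), the treatment the study set out to assess. Of the 8 genes other than Colec11, 0 passed limma's test with adjustment, and 0.281% of all probes did. At an unadjusted p under 0.05 there was 1 gene, C4b, and 20.1% of all probes. C4b was 0.98 higher with rapamycin (95% interval 0.38 to 1.57, adjusted p = 0.122) and did not overlap, as 6.9% of probes did not upward. C2 was 0.67 lower (difference -0.67, 95% interval -1.35 to 0.01, adjusted p = 0.253) and did not overlap, as 7.57% of probes did not downward. The differences were -0.65 for C1qa (95% interval -1.84 to 0.55), -0.45 for C1qb (95% interval -1.46 to 0.57) and -0.27 for C1qc (95% interval -0.97 to 0.43). C3 differed by 0.24 (95% interval -0.24 to 0.71), Cfb by 0.25 (95% interval -0.42 to 0.92) and C3ar1 by 0.03 (95% interval -1.0 to 1.05). Colec11 was 2.69 lower, as given above. Without BA+DMSO 2, 39.9% of all probes passed, C4b was higher by 1.20 (adjusted p = 0.0082), the differences were -1.26 for C1qa, -0.48 for C3ar1 and -0.07 for Cfb, and 1 of the 8 genes was called. Without BA+DMSO 1 the differences were -0.32 for C1qa, -0.19 for C1qb and 0 for C1qc. Over 27 alternatives the C4b difference ran from 0.63 to 1.28, and it was called in 1 of them.

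Whether rapamycin acted differently with and without the challenge was tested by the interaction, which is the rapamycin difference under challenge minus that without it. It passed for 0 of the 8 genes and 0% of all probes by limma, and 4 of the 8 genes had an unadjusted p under 0.05, as did 6.12% of all probes. It was -1.50 for C2 (95% interval -2.46 to -0.54, adjusted p = 0.616), -1.75 for C1qa (95% interval -3.44 to -0.05, adjusted p = 0.737) and 0.22 for C4b (95% interval -0.62 to 1.07, adjusted p = 0.843). Without BA+DMSO 2 it passed for C1qa, at -2.36 (adjusted p = 0.0449), and for C1qc, at -1.34 (adjusted p = 0.0451), and 11% of all probes passed.

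**Figure D3:**
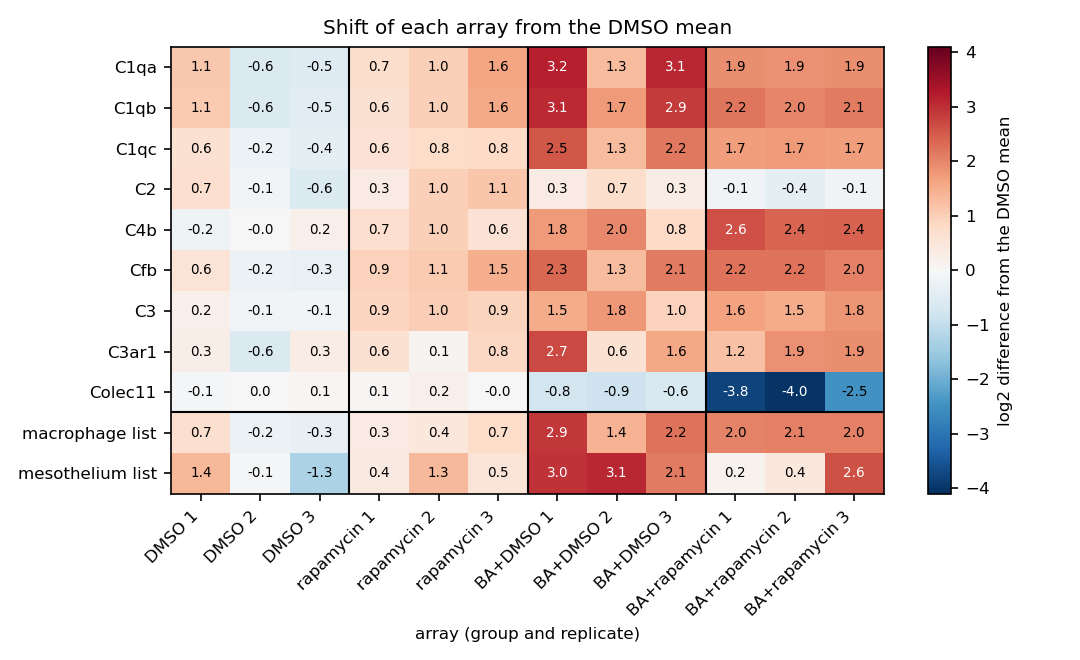
Shift of every array from the DMSO mean (colour and printed value, log2) for the 9 genes and for the median of 18 macrophage and 6 mesothelium markers. BA+DMSO 2 has the lowest macrophage score of the challenged arrays (1.42) and the lowest C1qa shift (1.29). BA+rapamycin 3 has the smallest Colec11 fall of its group (-2.49). It has the highest mesothelium score of its group (2.62) and also the highest endothelial score (1.55, not drawn), and neither link was tested.

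The other genes of the system came from a list of 55 names, of which 42 were on the array and 25 were tested. The recognition lectins Mbl1 and Mbl2, the protease gene Masp1, and the terminal components Hc, C6, C8a, C8b and C9 were not tested because no probe was well above background throughout a group. After challenge with vehicle 7 of the 25 rose and 1 fell, where 9.65% of all probes were higher and 10.8% lower, with a median of 0.32 against -0.04 over all probes. With the slide as a fixed term 0 of the 25 and 0.054% of all probes passed. C5ar1, the receptor for C5a, rose by 2.69 ± 0.34 (adjusted p = 0.000751), and Itgb2, the shared chain of complement receptors 3 and 4, by 2.66 ± 0.27 (adjusted p = 0.000267). Vsig4, a macrophage receptor for C3 fragments, rose by 2.27 ± 0.41 (adjusted p = 0.00445), and Cfp, or properdin, which holds the alternative enzyme together, by 2.10 ± 0.18 (adjusted p = 0.000144). The other rises were Itgax, Fcna and Daf2, named here after their values were seen. Susd4, an inhibitor of C3 cleavage, fell by 1.27 (adjusted p = 0.00634). C1ra and C1s, which encode the proteases attached to C1q, differed by -0.02 and 0.01 and did not pass.

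In mice given rapamycin, challenge raised 8 of the 25 and lowered 5, where 18.9% of all probes were higher and 22.9% lower, with a median of 0.55 against -0.08 over all probes. In place of these 13 calls there were 5 with array brightness as a covariate, where 6.43% of all probes passed, and 6 on slide 2 alone, where 11.8% did. C5ar1 rose by 2.17 ± 0.34 (adjusted p = 0.00125), Cfp by 2.02 ± 0.18 (adjusted p = 0.000108) and Itgb2 by 1.96 ± 0.27 (adjusted p = 0.000656). Itgam, the partner of Itgb2 in complement receptor 3, rose by 1.92 ± 0.44 on its brightest probe (adjusted p = 0.00694) and by 2.29 on its second. After challenge with vehicle the brightest Itgam probe was higher by 1.13 (adjusted p = 0.0906) and the second by 1.86 (adjusted p = 0.00242). Only the brightest probe enters the counts. Cd59a, which blocks the terminal pore, fell by 1.07 (adjusted p = 0.0118), Cr1l, an inhibitor of C3 convertases, by 1.07 (adjusted p = 0.004), and Clu, or clusterin, by 0.97 (adjusted p = 0.0153). Daf2, an inhibitor of C3 convertases, rose by 1.22 (adjusted p = 0.0133). C8g, a chain of the terminal component C8, was not well above background on any BA+rapamycin array and was at least 1.25-fold lower there. Its measured difference, to which the test applies, was -1.60 (adjusted p = 0.000358), and its second probe differed by 0.86 (adjusted p = 0.0776). Against BA+DMSO, C8g was at least 1.37-fold lower. Its measured difference of -1.73 (adjusted p = 0.00652) was the single call among the 25 genes there, and the bounds themselves were not tested. The second C8g probe differed by 0.36 from BA+DMSO (adjusted p = 0.535), so the probes of this gene disagree, and with the mean over the probes of a gene 0 of the 25 were called. Without BA+DMSO 2, 9 of the 25 and 39.9% of all probes passed in that comparison. Rapamycin alone changed 0 of the 25 by limma, with 6 at an unadjusted p under 0.05, as were 4.27% of all probes.

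**Figure D4:**
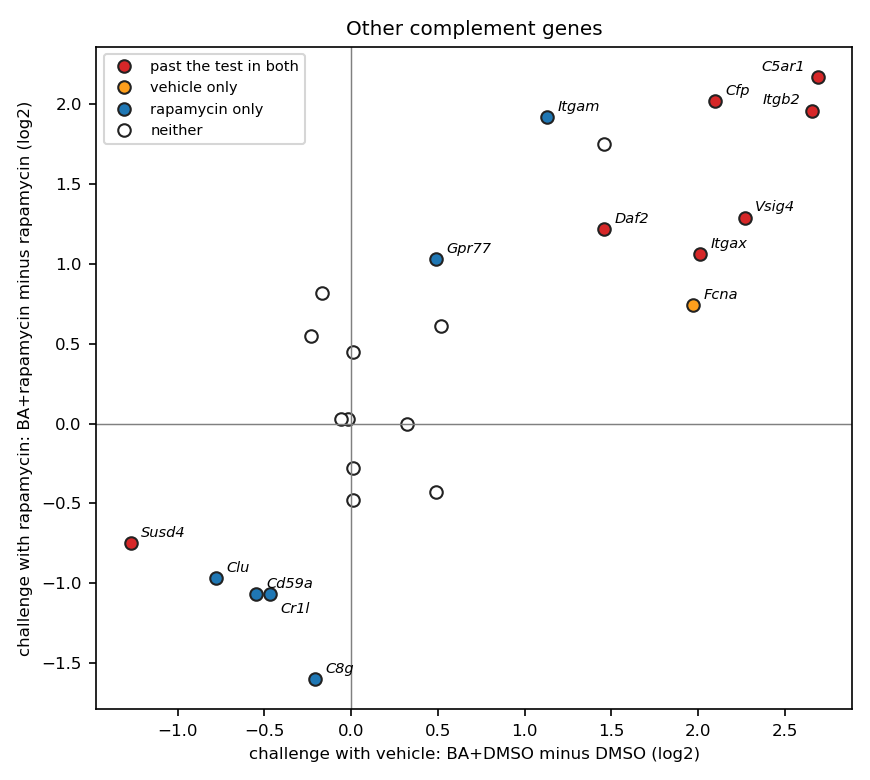
Log2 difference of 25 other complement genes after challenge with vehicle (x axis, BA+DMSO minus DMSO) and after challenge with rapamycin (y axis, BA+rapamycin minus rapamycin), coloured by which comparison passed an adjusted p of 0.05. C5ar1, Cfp and Itgb2 sit at the upper right with rises of 1.96 to 2.69, and Cd59a, Cr1l and Clu sit at the lower left at -1.07 to -0.97 under rapamycin.

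Most macrophage markers moved with the C1q chains. Of 18 tested markers, none of them a complement gene of these lists, 17 were higher after challenge with vehicle, against 9.65% of all probes. With rapamycin, challenge raised 12 of the 18 and lowered 1, where 18.9% of all probes were higher and 22.9% lower. The marker lowered was Mertk, by 1.20 (limma, adjusted p = 0.00729), and with vehicle it differed by -0.75 (adjusted p = 0.0787). The median marker stood at -0.35 to 0.66 from the DMSO mean in DMSO and 0.35 to 0.74 in rapamycin. It stood at 2.02 to 2.08 in BA+rapamycin and 1.42 to 2.89 in BA+DMSO. Cd68, Emr1 and Csf1r were well above background on all arrays. As with C1qa, DMSO 1 was the high array and BA+DMSO 2 the low array of its group. In a whole piece of aorta more macrophages and more RNA per macrophage cannot be told apart, and the part of this in the complement values was not tested. Of 6 mesothelium markers 5 were called higher after challenge with vehicle, where 9.65% of all probes were. The 6 include Lrrn4 and Upk1b, which entered the test only through BA+DMSO, where they are high, so nothing is drawn from this count. The median of the 6 markers stood at -1.30 to 1.35 from the DMSO mean in DMSO, 0.36 to 1.34 in rapamycin, 0.16 to 2.62 in BA+rapamycin and 2.13 to 3.10 in BA+DMSO. This median includes Lrrn4 and Upk1b too, so nothing about Colec11 is drawn from it. Of the defining markers Msln was well above background on all arrays. Upk3b was so on 2 of 3 DMSO arrays, all rapamycin and BA+DMSO arrays and 1 of 3 BA+rapamycin arrays, and Lrrn4 on all BA+DMSO arrays and 1 of 3 in each other group, so that Lrrn4 was tested through BA+DMSO alone, as Upk1b was. The part of mesothelium in the Colec11 difference was not tested.

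Over the 12 arrays the genes whose levels followed Colec11 most closely were Msx1, a homeobox gene (r = 0.977), Il17d, a cytokine of the interleukin-17 family (r = 0.975), and Fam174b (r = 0.969). Those for C1qa were Ly6g, a neutrophil marker (r = 0.984), Fcgr3, an immunoglobulin receptor (r = 0.977), and H2-DMa of antigen presentation (r = 0.976). Of 5 tested neutrophil markers only Ly6g was called higher after challenge with vehicle, where 9.65% of all probes were. The median of these 5 markers was lowest of its group on BA+DMSO 1 (0.49), the highest C1qa array. Those for C3 were Cd74, the invariant chain of class II molecules (r = 0.966), Adap2 (r = 0.959) and Ltc4s (r = 0.951), and those for C3ar1 were Lhfpl2, Slc12a8 and Taf1d (r = 0.946 to 0.954). Each r was the highest of all tested gene symbols outside the 9, and the arrays share groups, slides and brightness. Among the 9 genes C3 and C4b had r = 0.921, Cfb and C1qc r = 0.957, and Cfb and its neighbour C2 r = 0.068. Colec11 had negative r with every other gene of the 9 except C2 (0.515), down to -0.846 with C4b.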

How the data were processed

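The authors hybridised Cy3-labelled RNA to 1-colour Agilent mouse arrays. Feature Extraction 10.7.1.1 is named per the file headers, with probes on mm9, and 9.5.1.1 in the submitters' processing notes. The deposited scanner values are linear, background-subtracted intensity that was not scaled between arrays, and the deposited matrix, an alternative here, holds intensity that the authors normalized between arrays. Flags of spots (well above background, saturated, outlier) are scores of 0 or 1 per the file headers, and no spot was saturated.

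Here log2 signals without outlier spots were averaged per probe and the 75th percentile of each array subtracted. Probes entered the test when 0.5 or more of their spots exceeded background clearly on every array of any group, which left 27801. One limma 3.58.1 model (R 4.3.3) over 12 arrays gave two-sided p-values, adjusted within each contrast. A gene with several probes stood by its brightest, and the script was tested on simulated data. The members and lists were chosen with earlier results of these data known, so counts of them are no independent evidence. Genes outside the 9 were named by rule: per contrast the 4 highest and 4 lowest called differences without overlap, defining markers, and the 3 closest by r. C1ra, C1s, Itgax, Fcna, Daf2, Mertk, Upk1b and Ucp1 fall outside it and were named after their values were seen. Lists for neutrophil, fibroblast, adipocyte, endothelial, hepatocyte, kidney and adrenal cells had 1, 4, 1, 3, 1, 0 and 0 called higher after challenge with vehicle, of 5, 11, 7, 8, 2, 2 and 2 tested, where 9.65% of all probes were higher. The adipocyte call, Ucp1, was tested through BA+DMSO alone. Of 8 smooth muscle markers, 1 was lower, as were 10.8% of all probes. Alternatives were another scaling or background correction, other filters, block terms, weights, and leaving out each array.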

Additional observations from a re-analysis of the deposited data

Results flagged for a closer look

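In C2 the challenge difference went opposite ways with and without rapamycin: all 3 BA+DMSO arrays lay above the DMSO mean and all 3 BA+rapamycin arrays lay below the rapamycin mean. Equally, all rapamycin arrays lay above the DMSO mean and all BA+rapamycin arrays below the BA+DMSO mean. The interaction for C2 was -1.50 and did not pass limma's test (adjusted p = 0.616). With the slide as a fixed term the C2 challenge difference was -0.28 with vehicle and -1.29 with rapamycin, both below 0.

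The rapamycin difference went opposite ways for the 3 C1q chains too. Every rapamycin array lay above the DMSO mean and every BA+rapamycin array below the BA+DMSO mean, although group ranges overlapped. The interaction was -1.75 for C1qa, -1.50 for C1qb and -0.98 for C1qc (adjusted p = 0.737 for each). Without BA+DMSO 1, which stood apart in smooth muscle markers, the rapamycin difference under challenge was -0.32 for C1qa, -0.19 for C1qb and 0 for C1qc, so the opposite direction of C1qc rests on that array. Over 27 alternatives this difference ran from -1.26 to -0.09 for C1qa, -0.86 to -0.04 for C1qb and -0.62 to 0 for C1qc.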

How the results depend on the processing

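The 41 gene differences (Colec11 only in rapamycin minus DMSO) gave 1073 values over the alternatives. Of these, 980 kept direction and side of the threshold, 59 lost and 23 gained a call, and 11 changed sign. Only 7 differences after challenge and 5 in challenge under rapamycin were called as reported, so only these could lose a call. Most of the 980 were therefore differences that were not called in either fit. Colec11 went to -1.02 (rapamycin under challenge), -1.72 (challenge under rapamycin) and -1.09 (interaction) with normexp, and to -3.16, -3.98 and -3.23 without BA+rapamycin 3. The sign changes were in small differences. In BA+rapamycin minus BA+DMSO, the difference of C3ar1 went to -0.03 with normexp, -0.37 with the title date as a block, -0.08 and -0.09 without BA+rapamycin 2 or 3 and -0.48 without BA+DMSO 2, where Cfb went to -0.07; over single arrays left out these ranged to 0.57 and 0.46. C2 after challenge went to -0.28 with a fixed slide term. The interaction of C4b went to -0.18 with brightness as a covariate and -0.12 without BA+DMSO 3. It was 0.45 without BA+DMSO 2, and its highest value over 25 alternatives was 0.52. The interaction of C3ar1 ranged from -1.01 without BA+DMSO 2 to 0.04 without BA+DMSO 1.

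Genes called after challenge (7 of 8 as reported, where 20.5% of all probes passed) fell to 4 with only the groups compared. There fewer arrays enter, and 4.47% of all probes passed. The count was 0 with a fixed slide term (0.054% of all probes) or array weights (0.403%). Other complement genes (8 as reported) fell to 0 and 2 with these last settings. Array weights did not converge and gave BA+DMSO 1 a weight of 0.0028. For challenge under rapamycin 5 of 8 genes and 41.7% of all probes passed as reported. The count was 3 with normexp (62.4% of all probes) or the title date block (40%), and 8 with only the groups compared (56.4%). It was 2 with a fixed slide term (28.5%) or slide 2 alone (11.8%), and 1 with brightness (6.43%). The other genes (13 as reported) fell to 5 with brightness and 6 with slide 2 alone. Rapamycin alone gave 4 with array weights (0 as reported), where 5.44% of all probes passed. For rapamycin under challenge the other genes (1 as reported, C8g) gave 0 with normexp, probes detected on all arrays, the groups compared, array weights, the mean over probes and slide 2 alone. In these settings 0 to 0.248% of all probes passed, against 0.281% as reported. The fit on slide 2 alone was chosen after seeing the data. The causes were not tested. Leaving out one array gave 5 to 7 (challenge), 0 to 1 (rapamycin under challenge), 2 to 7 (challenge under rapamycin) and 0 to 2 (interaction), and for other genes 6 to 12, 1 to 9 and 10 to 14. The share of all probes passing then ran from 7.38 to 38%, 0.108 to 39.9%, 23.5 to 56.9% and 0 to 11% in these 4 comparisons.

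Samples sharing both date and number in their titles had correlations of deviations of 0.0873, 0.17 and -0.355. So few pairs cannot decide whether the samples were paired. With date and number together as a random replicate block, 7 of 8 genes and 21.4% of all probes passed after challenge. Colec11 with rapamycin alone went to -0.19 there. The estimated block correlations were -0.133 for slide, 0.496 for the title date and -0.583 for date and number together. Dim signal limits Colec11 and C8g in BA+rapamycin.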
